A study of Mus musculus with 17 samples.

Results

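The 9 interferon-stimulated genes Isg15, Ifit1, Ifit3, Irf7, Oasl2, Usp18, Rtp4, Bst2 and Ifi44 were followed by symbol through both deposited gene tables, and all 9 were found among the 23980 genes of each table. All mice were on the C57BL/6J background, and they were either wild type (WT), knockout (KO) for Pld6 or for Dnmt3l, or, at birth alone, double mutants (DKO) that lack both genes. Pld6 encodes a mitochondrial protein needed to make piRNAs, and Dnmt3l encodes a cofactor of de novo DNA methylation in male germ cells. Whole testes were taken on postnatal day 0 (P0) from 2 WT, 4 Pld6 KO, 2 Dnmt3l KO and 3 DKO samples. Leptotene/zygotene (L/Z) spermatocytes, cells in early meiotic prophase, were purified by FACS from animals 3 to 4 weeks old, with 2 samples for each of the 3 genotypes other than DKO. No cell-type-specific driver of the deletions is named in the sources used here. The study compared these genotypes to learn how piRNAs and DNA methylation act on retrotransposons and on the germ cell transcriptome, and the interferon-stimulated genes are read here within that design.

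Interferons are secreted signals that cells release when they sense foreign or misplaced nucleic acid. They bind receptors at the cell surface, JAK kinases at the receptor are activated, and a transcription factor complex that contains IRF9 then binds interferon-stimulated response elements in the promoters of target genes. Among the targets followed here, IRF7 is a transcription factor that amplifies interferon production, ISG15 is a ubiquitin-like modifier, USP18 removes ISG15 and restrains the receptor, IFIT1 and IFIT3 act together on viral RNA, OASL2 belongs to the oligoadenylate synthetase family, and BST2 tethers budding virus particles to the cell. RTP4 and IFI44 are further products of the same response.

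The promoters of the genes are shown first because the response element is where the complex that contains IRF9 binds. RefSeq promoter windows on GRCm38.p6, from 250 bases before to 50 bases after the start site, were at hand for 7 of the 9 genes; those of Usp18 and Rtp4 were not used here. The element core was searched as GAAANNGAAA on both strands, where overlapping matches were counted separately. It was present in 1131 of all 32851 windows, a share of 3.44%, and in 4 of the 7 windows of these genes. The 200 bases that precede the start site in those 4 genes are printed below on the strand of the gene, 5′ to 3′, with the bases covered by a core in capitals.
Isg15 (chr4:156200819-156201018, minus strand): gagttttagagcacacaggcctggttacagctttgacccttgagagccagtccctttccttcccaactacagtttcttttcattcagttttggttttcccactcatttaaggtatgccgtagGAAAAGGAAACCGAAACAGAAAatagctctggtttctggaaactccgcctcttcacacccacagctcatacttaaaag
Ifit1 (chr19:34640689-34640888, plus strand): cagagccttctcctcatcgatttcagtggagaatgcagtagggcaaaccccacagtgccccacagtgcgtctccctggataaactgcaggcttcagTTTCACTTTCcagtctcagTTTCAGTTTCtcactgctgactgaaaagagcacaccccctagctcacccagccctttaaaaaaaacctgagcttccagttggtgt
Ifit3 (chr19:34583329-34583528, plus strand): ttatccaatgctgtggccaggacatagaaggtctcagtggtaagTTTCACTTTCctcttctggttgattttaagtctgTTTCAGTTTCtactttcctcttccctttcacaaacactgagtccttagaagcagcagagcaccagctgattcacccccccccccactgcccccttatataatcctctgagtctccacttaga
Bst2 (chr8:71537473-71537672, minus strand): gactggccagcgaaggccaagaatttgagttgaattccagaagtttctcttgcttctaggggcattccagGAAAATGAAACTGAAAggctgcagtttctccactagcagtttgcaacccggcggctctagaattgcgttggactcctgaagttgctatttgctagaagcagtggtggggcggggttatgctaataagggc
Isg15 carried 3 overlapping cores that began 78, 72 and 66 bases before the start site. Ifit1 carried 2 cores, which began 104 and 85 bases upstream, and Ifit3 carried 2 that began 156 and 122 bases upstream, all 4 on the strand opposite to the gene. Bst2 had 2 overlapping cores from 130 and 124 bases upstream. It was also the only one of the 7 with the gamma-activated site TTCNNNGAA, which began 136 bases upstream, reads the same on either strand, overlaps the first core of Bst2 and occurs in 8.3% of all windows. The windows of Irf7, Oasl2 and Ifi44 held neither string, which says only that these letters are not in the windows.

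**Figure D1:**
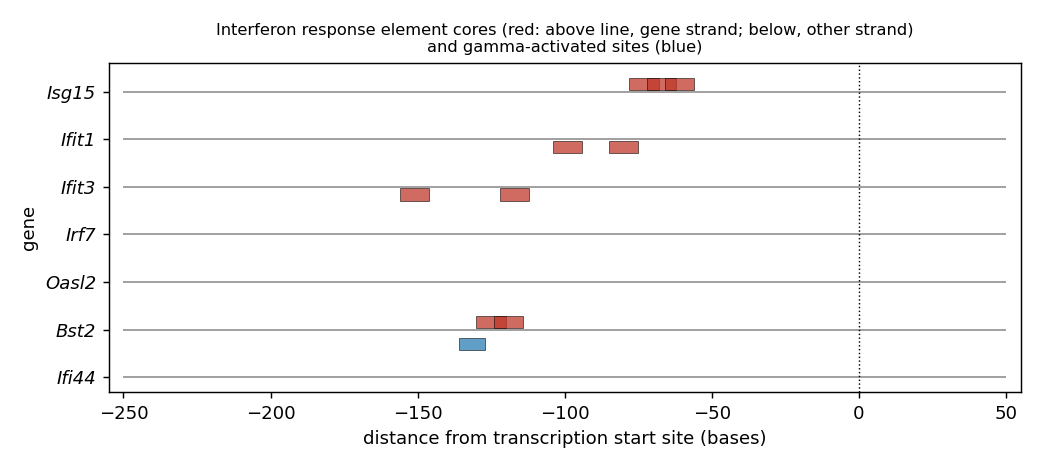
Positions of the searched strings around the start sites of the 7 genes with a promoter window, with distance from the start site in bases on the x axis and 1 line per gene. Red boxes are response element cores, drawn above the line on the strand of the gene and below it on the other strand, and the blue box is the gamma-activated site of Bst2; all of them lie between 156 and 57 bases before the start site.

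On GRCm38.p6 the genes, all protein coding, are spread over 8 chromosomes. Isg15 lies at chr4:156199424-156200818, Irf7 at chr7:141263183-141266499, Oasl2 at chr5:114896926-114912245, Usp18 at chr6:121245906-121270917, Rtp4 at chr16:23520219-23614222, Bst2 at chr8:71534255-71537472 and Ifi44 at chr3:151730922-151749910. Ifit3 (chr19:34583119-34588982) and Ifit1 (chr19:34640889-34650009) sit in a cluster of similar genes on chromosome 19. The authors' software shares fragments between similar transcripts, so the values of Ifit1 and Ifit3 may be less certain. Their counts were whole numbers in every library, and the extent of such sharing was not tested.

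Libraries held 5194238 to 14578341 fragments at L/Z and 9900346 to 23498968 at P0. Pld6 had 0 fragments in all Pld6 KO libraries at L/Z and in all DKO libraries, and 0 to 2 in Pld6 KO at P0 against 40 and 57 in WT. Dnmt3l had 0 in Dnmt3l KO at L/Z and 0 to 3 in Dnmt3l KO and DKO at P0, against 53 and 72 in WT at P0. In Pld6 KO replicate 1 at P0 it had only 6, and the summed level of 9 prospermatogonia markers was also lowest there (102 CPM, counts scaled to a common library total, against 180 to 419 in the other 10 libraries). Late germ cell markers summed to 70.2 CPM in Dnmt3l KO replicate 1 at P0 and to 2.80 to 15.3 CPM in the other P0 libraries. At L/Z the 45S pre-ribosomal RNA gene held 8.27% of the WT replicate 1 library and 8.06% of the Pld6 KO replicate 1 library but at most 0.3% of the others, and at P0 it held 4.43% of DKO replicate 1. Markers of Sertoli cells, the main somatic cell of the tubule, summed to 2501 to 3571 CPM at P0, and markers of L/Z spermatocytes to 2466 to 8498 CPM in the sorted cells.

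Levels were compared between genes as FPKM, which accounts for transcript length. In WT testes at P0 Bst2 stood highest at 38.6 FPKM (37.4 and 39.9), far above Oasl2 at 3.11 (2.05 and 4.17). Rtp4 at 1.95 and Irf7 at 1.20 came next, and the WT values of Oasl2 and Rtp4 overlapped, as did those of Rtp4 and Irf7. Usp18 (0.855), Isg15 (0.633), Ifit3 (0.249) and Ifi44 (0.227) followed, each overlapping its neighbour in this order, and Ifit1 was lowest at 0.0840 FPKM. The same pair led in WT L/Z spermatocytes, with Bst2 at 28.3 FPKM and Oasl2 at 4.18, followed by Irf7 at 1.62. Usp18 (0.619), Isg15 (0.457), Ifit3 (0.282) and Rtp4 (0.246) overlapped in turn there, Ifi44 (0.0623) was lower, and Ifit1 was listed at 0 in both WT libraries. The tables of the stages were normalized separately, so levels are not compared across them.

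At P0 most of the 9 genes had higher estimates in the mutants that lacked Dnmt3l than in WT, but Usp18 in DKO was close to WT (0.04 ± 0.596). The median log2 difference was 1.89 for Dnmt3l KO and 1.42 for DKO, whereas it was 0.62 for Pld6 KO. All 9 estimates were above 0 in both mutants without Dnmt3l, and 8 of 9 were for the Pld6 KO. No member passed the call rule of an edgeR quasi-likelihood FDR (Benjamini-Hochberg over 15901 genes) under 0.05 with a fold change over 2 in any of these comparisons, so none is described as having risen. The share of all genes called by edgeR was itself 0.0% in Dnmt3l KO (0 of 15901, smallest FDR of any gene 0.256), 0.0126% in DKO and 0.00629% in Pld6 KO. In a whole testis, more RNA per cell and more cells of the type that makes it cannot be told apart.

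Bst2 and Oasl2, the most abundant members, gave the most precise values. Bst2 was counted at 24.6 and 22.3 CPM in WT, at 25.4, 33.4, 17.3 and 34.9 in Pld6 KO, at 44.1 and 57.3 in Dnmt3l KO, and at 53.3, 45.9 and 37.9 in DKO. All 5 libraries without Dnmt3l were thus above all 6 with it. The edgeR log2 difference from WT was 1.11 ± 0.289 (SE) in Dnmt3l KO (2.16-fold, FDR 0.256), 0.96 ± 0.268 in DKO (FDR 0.392) and 0.24 ± 0.253 in Pld6 KO (FDR 0.97). Oasl2 was counted at 12.7 and 6.13 CPM in WT, at 9.41, 12.2, 14.04 and 18.5 in Pld6 KO, at 16.4 and 55.3 in Dnmt3l KO, and at 33.0, 20.9 and 21.7 in DKO. Here 4 of the 5 libraries without Dnmt3l lay above all others, and Dnmt3l KO replicate 1, at 16.4, lay below the highest Pld6 KO library. The edgeR log2 difference from WT was 1.93 ± 0.498 in Dnmt3l KO (3.81-fold, FDR 0.256), 1.42 ± 0.465 in DKO (FDR 0.442) and 0.53 ± 0.439 in Pld6 KO (FDR 0.97).

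Isg15, the ubiquitin-like modifier, was counted at 0.595 and 0.168 CPM in WT (7 and 2 fragments), at 0.578, 0.238, 0.771 and 0.805 in Pld6 KO, at 1.14 and 1.74 in Dnmt3l KO, and at 2.03, 1.29 and 0.796 in DKO. Both mutants without Dnmt3l cleared WT, and DKO replicate 3 fell just short of the highest Pld6 KO library. Usp18, which takes ISG15 off its targets, was counted at 1.78 and 1.01 CPM in WT, at 0.826, 1.35, 1.28 and 2.11 in Pld6 KO, at 1.31 and 5.47 in Dnmt3l KO, and at 1.28, 1.82 and 1.22 in DKO. Its groups overlapped throughout, and only Dnmt3l KO replicate 2 stood apart. The edgeR log2 difference from WT was 1.89 ± 0.742 for Isg15 (FDR 0.344) and 1.28 ± 0.633 for Usp18 (FDR 0.406) in Dnmt3l KO, but 1.77 ± 0.698 (FDR 0.522) and 0.04 ± 0.596 (FDR 0.994) in DKO.

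Irf7, the transcription factor among the members, was counted at 1.95 and 2.02 CPM in WT, at 1.82, 3.42, 2.23 and 4.93 in Pld6 KO, at 2.89 and 8.33 in Dnmt3l KO, and at 8.42, 3.03 and 3.65 in DKO. WT libraries were nearly equal, and 1 library in each mutant without Dnmt3l stood above all others while the others lay within the Pld6 KO range. The edgeR log2 difference from WT was 1.49 ± 0.622 in Dnmt3l KO (FDR 0.349), 1.31 ± 0.583 in DKO (FDR 0.6) and 0.63 ± 0.559 in Pld6 KO (FDR 0.97).

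The IFIT pair, which binds foreign RNA, was scarce. Ifit1 was counted at 0.340 and 0.0840 CPM in WT (4 and 1 fragments), at 0.330, 0.318, 0.428 and 1.31 in Pld6 KO, at 1.05 and 2.78 in Dnmt3l KO, and at 1.28, 1.21 and 0.629 in DKO. Ifit3 was counted at 0.680 and 0.252 CPM in WT (8 and 3 fragments), at 0.248, 1.67, 0.343 and 1.51 in Pld6 KO, at 0.965 and 3.56 in Dnmt3l KO, and at 2.67, 1.37 and 1.34 in DKO. For both genes the Dnmt3l KO and DKO libraries were all above WT but overlapped Pld6 KO. The edgeR log2 difference from WT in Dnmt3l KO was 3.12 ± 0.891 for Ifit1 (FDR 0.276), the largest of the 9, and 2.26 ± 0.922 for Ifit3 (FDR 0.347). In DKO it was 2.20 ± 0.871 (FDR 0.522) and 1.89 ± 0.875 (FDR 0.623).

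Rtp4, a Golgi chaperone that is induced by interferon, was counted at 3.91 and 1.68 CPM in WT, at 2.89, 5.01, 3.25 and 4.83 in Pld6 KO, at 4.56 and 15.5 in Dnmt3l KO, and at 4.48, 6.37 and 3.73 in DKO. Its DKO values overlapped WT. Ifi44 was counted at 0.765 and 0.504 CPM in WT, at 0.743, 1.03, 1.71 and 1.61 in Pld6 KO, at 1.23 and 5.90 in Dnmt3l KO, and at 5.44, 2.12 and 2.35 in DKO. Its DKO values were all above both WT and Pld6 KO. In Dnmt3l KO the edgeR log2 difference from WT was 1.84 ± 0.557 for Rtp4 (FDR 0.291) and 2.47 ± 0.758 for Ifi44 (FDR 0.293), and in DKO it was 0.79 ± 0.518 (FDR 0.744) and 2.33 ± 0.719 (FDR 0.41).

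**Figure D2:**
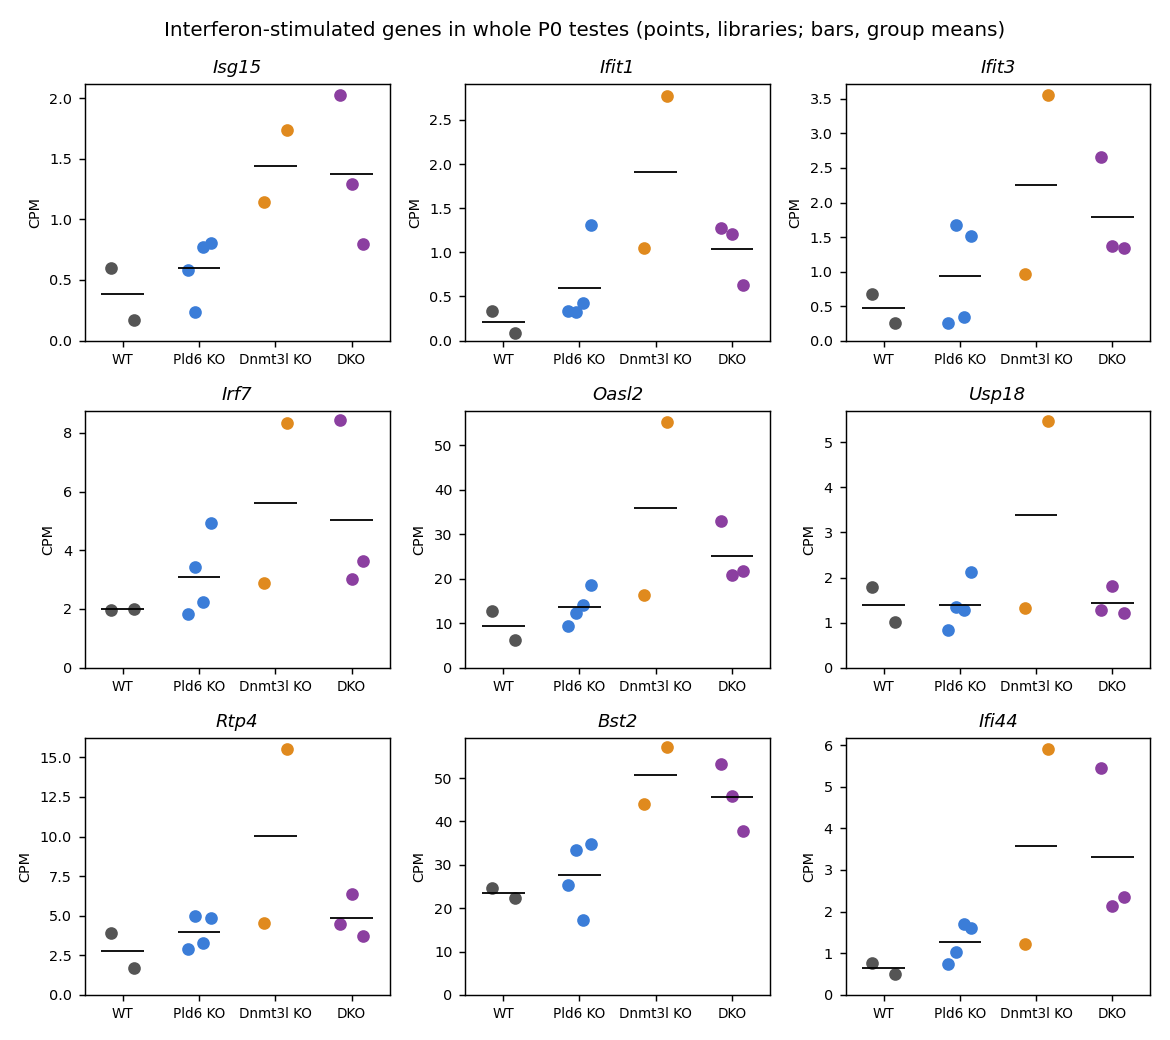
Levels of the 9 genes in whole P0 testes, in CPM on a linear y axis from 0, with 1 point per library and a bar at the mean of each genotype. Bst2 is the gene whose Dnmt3l KO and DKO libraries (37.9 to 57.3 CPM) all lie above the WT and Pld6 KO libraries (17.3 to 34.9 CPM); for 7 of the 9 genes the highest point is Dnmt3l KO replicate 2.

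Dnmt3l KO replicate 2 was the highest of all 11 libraries for 7 of the 9 genes, and DKO replicate 1 for the other 2 (Isg15 and Irf7). Summed over the 9 genes, the WT libraries reached 47.3 and 34.1 CPM and the Pld6 KO libraries 42.3, 58.6, 41.4 and 70.6 CPM, while the Dnmt3l KO libraries reached 73.7 and 156 CPM and the DKO libraries 112, 84.1 and 73.3 CPM. Every library without Dnmt3l thus summed above every library with it, by a narrow margin between DKO replicate 3 and Pld6 KO replicate 4. Bst2 and Oasl2 made up most of each sum. They held 24.6 and 12.7 of the 47.3 CPM in WT replicate 1, and 37.9 and 21.7 of the 73.3 CPM in DKO replicate 3. Of the 9 genes, only Bst2 separated these libraries by itself, where 0.472% of all genes did. Without Dnmt3l KO replicate 2, the median log2 difference of Dnmt3l KO from WT was 0.89 and 8 of 9 estimates were positive, with Usp18 at -0.11. Without Dnmt3l KO replicate 1 the median was 2.47. It was 2.54 without WT replicate 1 and 1.49 without WT replicate 2. For Pld6 KO the median was 1.22 without WT replicate 1 and 0.18 without WT replicate 2.

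In Dnmt3l KO against WT, 8 of the 9 genes (all but Usp18) had an unadjusted edgeR p under 0.05 in the higher direction, where 6.24% of all tested genes did, and for 8 genes the 2 mutant libraries lay above both WT libraries, where 25.3% of all genes did. In DKO against WT these counts were 7 genes (all but Usp18 and Rtp4) against a background of 5.14%, and 7 genes against 15.7%. Both comparisons use the same 2 WT libraries, so they are not independent. The median of all genes was 0.03 and 0.01 on the log2 scale. The DESeq2 Wald test on the same counts called Oasl2 (FDR 0.0252) and Bst2 (FDR 0.0486) in Dnmt3l KO, where it called 0.447% of genes, and no member in DKO (7 with p under 0.05). Limma on log2(FPKM + 1) called no member in either mutant, with 7 members in Dnmt3l KO and 4 in DKO at p under 0.05. The share of all genes with a p under 0.05 was not counted for DESeq2 or limma. Member counts at that p from these tests, here and below, thus stand without a background. In Pld6 KO against WT, edgeR, DESeq2 and limma called no member, and no member had an unadjusted p under 0.05.

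**Figure D3:**
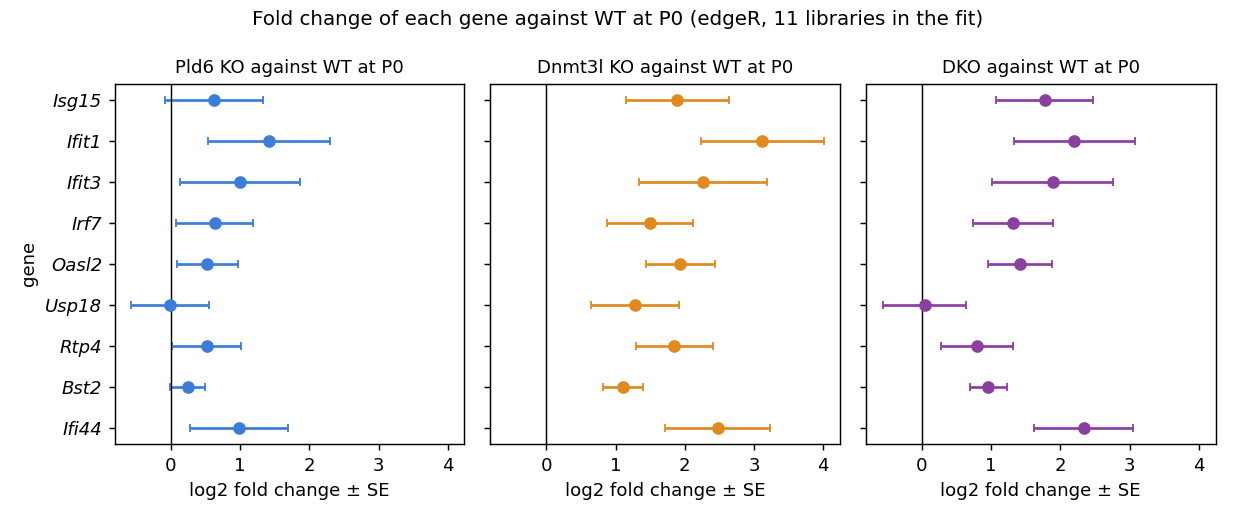
Log2 fold change of each gene against WT at P0 on the x axis, with bars of 1 SE from the edgeR fit over 11 libraries and 1 panel for each mutant. The Dnmt3l KO estimates run from 1.11 (Bst2) to 3.12 (Ifit1) and the DKO estimates from 0.04 (Usp18) to 2.33 (Ifi44), while the Pld6 KO estimates run from -0.01 to 1.41 and have bars that are wide for the rarer genes.

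The mutants were also compared with each other. In DKO against Pld6 KO, which asks what the loss of Dnmt3l added where Pld6 was already absent, all 9 estimates were positive with a median of 0.79, and edgeR called no member (0.0% of all genes). Here 4 members had an unadjusted p under 0.05 in the higher direction, where 3.47% of all genes did, namely Bst2 (0.72 ± 0.216), Ifi44 (1.35 ± 0.528), Oasl2 (0.89 ± 0.365) and Isg15 (1.15 ± 0.529), with edgeR FDR from 0.79 to 0.824. For Oasl2, Bst2 and Ifi44 the 3 DKO libraries lay above all 4 Pld6 KO libraries, where 3.31% of all genes did. This comparison shares no library with that of Dnmt3l KO and WT. DESeq2 called no member, with 3 at p under 0.05.

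In DKO against Dnmt3l KO, all 9 estimates were negative with a median of -0.37. Over all genes 49.1% of estimates were positive and the median was -0.011. EdgeR called no member (0.0755% of all genes). Usp18 (-1.24 ± 0.557, FDR 0.268) and Rtp4 (-1.05 ± 0.477, FDR 0.27) were the 2 with an unadjusted edgeR p under 0.05. Over all genes, 2836 of 15901 had such a p in either direction. Usp18 and Rtp4 both had their highest value in Dnmt3l KO replicate 2, as had 7 of the 9 genes in all. For Oasl2, Irf7, Ifi44 and Ifit3 every DKO library lay above Dnmt3l KO replicate 1. For the other members DKO libraries lay on both sides of that replicate. The negative sign of the estimates thus leans on Dnmt3l KO replicate 2, and a fit without it is not given for this comparison. DESeq2 also called none, with 2 members at p under 0.05. The departure of DKO from additivity, that is from the summed log2 differences of both single mutants, was negative for all 9. Its median was -1.13, and it ran from -0.40 ± 0.36 for Bst2 to -2.33 ± 1.097 for Ifit1. Over all genes 46.9% of departures were positive, with a median of -0.036. The departure also takes in Dnmt3l KO replicate 2 and the same 2 WT libraries. The 9 genes varied together, so their shared sign is not 9 separate results. No member's departure passed the edgeR test, and 0.0% of all genes did (smallest member FDR 0.447, for Rtp4). Rtp4 was the single member with an unadjusted edgeR p under 0.05, where 1740 of 15901 genes had one. DESeq2 passed no member, with 1 member at p under 0.05.

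Pooled by genotype at the Dnmt3l locus, a comparison chosen after the values were seen, the 5 libraries without Dnmt3l gave a median log2 difference of 1.41 from the 6 with it, and all 9 estimates were positive. Unadjusted edgeR p values were under 0.05 and in the higher direction for 8 members, where 5.33% of all genes met that, and the lowest belonged to Bst2 (0.91 ± 0.18, FDR 0.248) and Oasl2 (1.41 ± 0.308, FDR 0.268). EdgeR called no member and 0.0% of all genes, and only Bst2 had groups that did not overlap, where 0.472% of all genes did. DESeq2 called Oasl2 (FDR 0.00399) and Ifi44 (FDR 0.0328), with 0.205% of all genes called, while Bst2 had an FDR of 0.00358 at under 2-fold. Without Dnmt3l KO replicate 2 the edgeR median was 0.83, with Usp18 at -0.03. Pooled at the Pld6 locus instead, the 7 libraries without Pld6 gave a median of 0.23 (edgeR called no member and 0.044% of all genes, no member had an unadjusted p under 0.05, and DESeq2 called no member).

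The wider pathway was described with lists of other genes. Of 13 interferon ligands, none passed the filter on low counts. The highest count of any ligand in any P0 library was 11 fragments, for Ifnz, and 6 of the 13 had 0 fragments in all P0 libraries, so a change in ligand RNA was not detectable at this depth. The receptors and transducers were well expressed, with Ifngr2 at 83.8 FPKM, Ifnar2 at 42.1, the kinase Jak1 at 99.9 and the factor Irf3 at 31.5 in WT at P0. The 6 receptors had a median log2 difference from WT of 0.09 in Dnmt3l KO and -0.17 in DKO, and the 13 transducers and interferon regulatory factors had 0.17 and 0.04. Jak1 was at -0.29 ± 0.191 and Irf3 at 0.15 ± 0.24 in Dnmt3l KO. Feedback inhibitors had medians of 0.26 and -0.08 over 7 genes, and the 4 enzymes that attach ISG15 to proteins 0.35 and 0.16, with the conjugating enzyme Ube2l6 at 0.33 ± 0.281 in Dnmt3l KO.

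Of 53 other interferon-stimulated genes, 46 passed the filter at P0. In Dnmt3l KO, 40 of the 46 were above WT, as were 52.7% of all tested genes, with a median of 0.75. Of the 46, 21 had an unadjusted edgeR p under 0.05 in the higher direction, where 6.24% of all genes did. In DKO 40 were above WT (52% of all genes) with a median of 0.55, and 12 had such a p (5.14% of all genes). In Pld6 KO 27 were above WT (53.2% of all genes) with a median of 0.11. There 4 had such a p, where 805 of 15901 genes had one in either direction. The 2 most abundant of the list did not follow it, with Ifitm2, which encodes a membrane protein that blocks virus entry, at -0.19 ± 0.252 and Ly6e at -0.36 ± 0.245 in Dnmt3l KO. All 20 genes of interferon-gamma response and antigen presentation passed the filter, and beside the same shares of all genes 18 were above WT in Dnmt3l KO (median 0.79, 9 at p under 0.05), 18 in DKO (median 0.77, 9 at p under 0.05) and 16 in Pld6 KO (median 0.45, 3 at p under 0.05). B2m, the light chain of class I molecules, was at 0.61 ± 0.353 and the peptide loader Tapbp at -0.20 ± 0.216 in Dnmt3l KO. No gene of these lists was called by edgeR at P0.

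**Figure D4:**
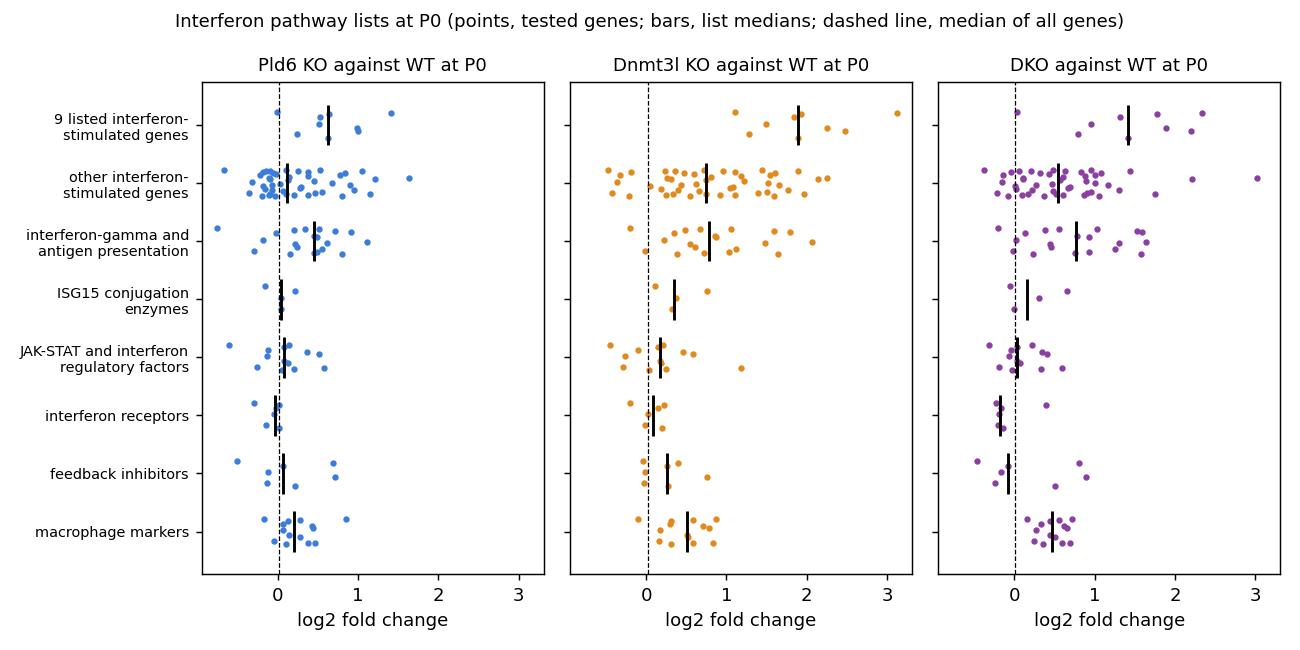
Log2 fold changes against WT at P0 on the x axis for the 9 genes and 7 further lists, with 1 point per tested gene, a bar at the list median, a dashed line at the median of all genes and 1 panel per mutant. In Dnmt3l KO the medians fall from 1.89 for the 9 genes to 0.75 for other interferon-stimulated genes and 0.79 for interferon-gamma and antigen-presentation genes, and lie between 0.09 and 0.51 for the other 5 lists.

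Macrophages and lymphocytes express many interferon-stimulated genes, so their markers were set beside these values. Of 15 macrophage markers, 14 passed the filter at P0, and 13 of them were above WT in Dnmt3l KO (median 0.51) and 14 in DKO (median 0.47), with 12 above WT in Pld6 KO (median 0.21). The WT libraries summed to 152 and 154 CPM of these markers and the Pld6 KO libraries to 144 to 204 CPM, while the Dnmt3l KO libraries summed to 192 and 206 CPM and the DKO libraries to 152, 258 and 209 CPM. Within groups the macrophage sum and the summed level of the 9 genes did not always go together. DKO replicate 1 had the highest level of the 9 genes in its group and the lowest macrophage sum. Dnmt3l KO replicate 2 was the higher of its pair in both. Pld6 KO replicates 1 and 4 both had macrophage sums of 204 CPM or more, and their 9 genes summed to 42.3 and 70.6 CPM. No macrophage marker was at 0 in any P0 library. The 10 lymphocyte markers summed to 3.08 to 7.79 CPM with Dnmt3l and 6.08 to 10.5 without it. All 12 L/Z spermatocyte markers were also above WT in Dnmt3l KO at P0 (median 1.44), with a sum of 266 CPM in replicate 1 and 117 CPM in replicate 2. They summed to 90.3 and 62.9 CPM in WT, to 69.6 to 123 CPM in Pld6 KO and to 102 to 166 CPM in DKO. The paper names prospermatogonia as the only germ cells of newborn testes, so meiotic cells are not read from these sums. Sertoli markers summed to 2763 and 2674 CPM in Dnmt3l KO against 3571 and 3271 CPM in WT (6 of 8 below WT, median -0.38), and lay between 2501 and 3258 CPM in the DKO and Pld6 KO libraries. Leydig markers summed to 1961 and 2666 CPM in Dnmt3l KO against 1520 and 1565 CPM in WT, to 1264 to 1738 CPM in DKO and to 1701 to 3608 CPM in Pld6 KO. The part of any of these cells in the levels of the 9 genes was not tested.

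Among themselves the 9 genes varied together at P0. Across the 11 libraries, Pearson's r between pairs of log2 CPM ran from 0.49 to 0.96 with a median of 0.81 over 36 pairs, where the libraries share depth, tissue make-up and genotype. The 6 further genes whose log2 CPM followed the mean of the 9 most closely were Gbp3 (r = 0.941), Irf9 (0.939), Ifih1 (0.931), Nudt16 (0.927), Sp3os (0.908) and Gbp9 (0.906), chosen from 12543 genes. Gbp3 and Gbp9 encode guanylate-binding proteins, IRF9 is the DNA-binding subunit of the complex that interferon activates, and IFIH1 (MDA5) senses double-stranded RNA. Irf9 stood at 15.9 ± 2.35 CPM (SD, n = 2) in WT, 18.3 ± 1.70 in Pld6 KO (n = 4), 36.1 ± 13.8 in Dnmt3l KO (n = 2) and 24.1 ± 1.80 in DKO (n = 3), and its edgeR log2 difference from WT in Dnmt3l KO was 1.18 ± 0.251 (FDR 0.256). Gbp3 stood at 2.49 ± 0.320, 5.41 ± 2.68, 10.5 ± 5.16 and 7.84 ± 1.81 CPM in the same order, with an edgeR log2 difference of 2.07 ± 0.507 in Dnmt3l KO (FDR 0.256). Both genes were chosen for following the 9 across these same libraries. Higher levels in Dnmt3l KO were thus built into the choice and are no separate result.

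In L/Z spermatocytes only the commoner members could be tested, and their estimates lay on both sides of 0. Ifit1, Ifit3, Rtp4 and Ifi44 had 0 to 12 fragments per library and did not pass the filter, so differences of these 4 genes were not detectable at this depth. Among the 5 tested genes the median log2 difference from WT was -0.09 for the Pld6 KO and -0.19 for the Dnmt3l KO, where the medians of all genes were 0.004 and -0.037, and edgeR (Benjamini-Hochberg over 14662 genes) called no member in Pld6 KO (0.225% of all genes), in Dnmt3l KO (5.47%) or between the mutants (0.0477%). The sign of these medians was not stable. With a factor for the 45S-rich libraries they were 0.03 for the Pld6 KO and 0.15 for the Dnmt3l KO, without WT replicate 1 they were 0.38 and 0.33, and without WT replicate 2 they were -0.63 and -0.29. For the Dnmt3l KO the median was 0.056 without its replicate 1 and -0.35 without its replicate 2, and for the Pld6 KO it was -0.39 without its replicate 1 and 0.038 without its replicate 2. Oasl2 was counted at 16.6 and 8.08 CPM in WT, at 11.8 and 9.38 in Pld6 KO and at 5.80 and 11.7 in Dnmt3l KO, and its groups overlapped. Bst2 was counted at 17.0 and 15.1 CPM in WT, at 11.3 and 10.7 in Pld6 KO and at 10.8 and 16.9 in Dnmt3l KO, so that both Pld6 KO libraries were below WT. The edgeR log2 difference of Bst2 from WT was -0.54 ± 0.311 in Pld6 KO (FDR 0.61) and -0.19 ± 0.309 in Dnmt3l KO (FDR 0.725), and that of Oasl2 was -0.23 ± 0.426 (FDR 0.894) and -0.46 ± 0.429 (FDR 0.519).

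Irf7 was counted at 3.81 and 1.28 CPM in WT, at 2.62 and 2.21 in Pld6 KO and at 2.00 and 1.79 in Dnmt3l KO, while Usp18 was counted at 1.19 and 0.765 CPM in WT, at 1.45 and 0.631 in Pld6 KO and at 0.80 and 1.07 in Dnmt3l KO. The mutant values of Irf7 lay between the WT libraries, and the groups of Usp18 overlapped. Isg15 was counted at 0.339 and 0.170 CPM in WT (4 and 2 fragments), at 0.727 and 0.710 in Pld6 KO (5 and 9 fragments) and at 1.00 and 1.07 in Dnmt3l KO (5 and 15 fragments), with no overlap between genotypes. Over all genes, 28.1% had both Dnmt3l KO libraries above both of WT and 21.6% had both Pld6 KO libraries above them, so 1 of 5 members is no more than that background. Its edgeR log2 difference from WT was 1.99 ± 0.806 in Dnmt3l KO (FDR 0.145) and 1.45 ± 0.827 in Pld6 KO (FDR 0.606). It was the single member with an unadjusted edgeR p under 0.05 at L/Z, where 15.0% of all genes met that in the higher direction in Dnmt3l KO, DESeq2 gave none, and limma on log2(FPKM + 0.1) called it in Dnmt3l KO (FDR 0.0459), where that test called 4.53% of all genes.

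**Figure D5:**
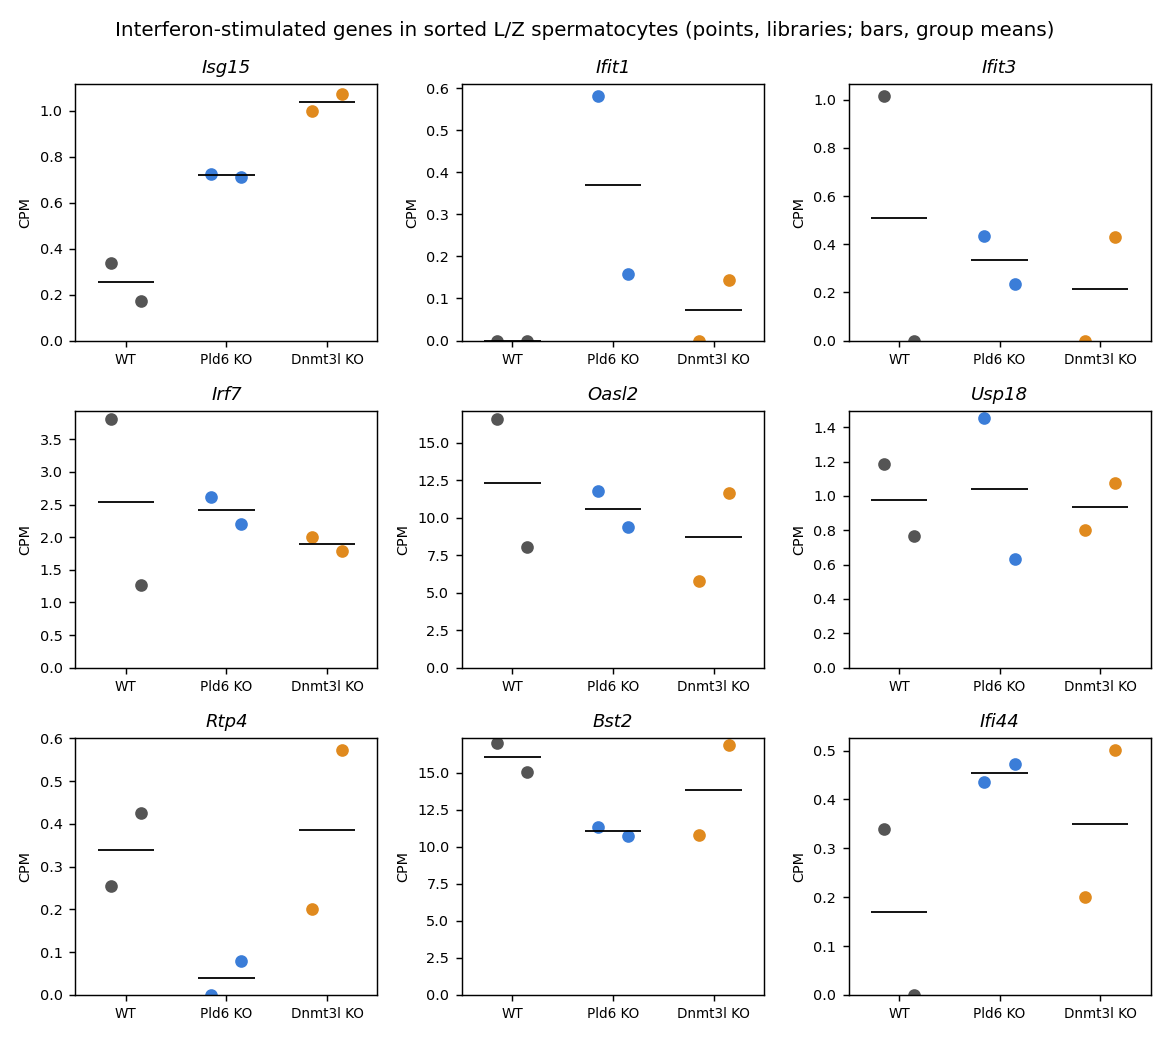
Levels of the 9 genes in sorted L/Z spermatocytes, in CPM on a linear y axis from 0, with 1 point per library and a bar at the mean of each genotype. Isg15 runs from 0.170 CPM in WT to 1.07 in Dnmt3l KO without overlap between genotypes but rests on 2 to 15 fragments, and Ifit1, Ifit3, Rtp4 and Ifi44 stay at or below 12 fragments.

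Across the 6 L/Z libraries, r between pairs of the 5 tested genes ran from -0.40 to 0.67, with a median of 0.20 over 10 pairs. The genes that followed their mean most closely were Myh11 (r = 0.994), Sparcl1 (0.989), Tgfbi (0.978), Dab2 (0.969), Sepp1 (0.967) and Tmtc4 (0.961). They were chosen as the highest of 11029 genes, of which 47 had an r over 0.9 across these 6 libraries. How far that choice made the values high was not tested. Of the named genes, Myh11, smooth muscle myosin, belongs to the list of peritubular and smooth muscle markers. That list of 5 genes summed to 172 and 54.4 CPM in the WT libraries, to 119 and 52.8 CPM in the Pld6 KO libraries and to 58.6 and 170 CPM in those of Dnmt3l KO, and the mean of the members was highest in the same library of each pair. Macrophage markers summed to 53.7 and 11.7, 58.6 and 29.4, and 44.4 and 113 CPM in the same order, and 11 of the 12 tested were above WT in Dnmt3l KO (median 1.30). The part of somatic cells in the L/Z levels was not tested.

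Of the interferon pathway lists, 3 genes passed the call rule in Dnmt3l KO spermatocytes, as did 1 macrophage marker and 7 of the 12 L/Z spermatocyte markers besides Dnmt3l itself. Ifngr1, a chain of the interferon-gamma receptor, rose to 44.4 ± 15.5 CPM from 20.1 ± 2.21 in WT (SD, n = 2 each; edgeR log2 difference 1.13 ± 0.284, FDR 0.0383). The class I heavy chain H2-K1 rose to 730 ± 180 from 287.5 ± 149 CPM (1.34 ± 0.339, edgeR FDR 0.0385), and the macrophage receptor Mrc1 to 26.3 ± 3.56 from 6.91 ± 5.80 CPM (1.92 ± 0.488, edgeR FDR 0.0395). Socs1, an inhibitor of JAK kinases, fell to 11.8 ± 3.42 from 25.7 ± 2.33 CPM (-1.10 ± 0.29, edgeR FDR 0.0456). Each of these calls was lost without Dnmt3l KO replicate 1 (edgeR FDR 0.233 to 0.259). The calls of Ifngr1, Socs1 and H2-K1 were also lost without WT replicate 1 (edgeR FDR 0.167 to 0.17), those of Ifngr1, Socs1 and Mrc1 without WT replicate 2 (0.0522 to 0.0577), and those of Socs1, H2-K1 and Mrc1 without Dnmt3l KO replicate 2 (0.0546 to 0.097). Under other settings, the call of Ifngr1 was lost with the 45S factor (edgeR FDR 0.055) and in limma (0.0574 and 0.0504 with pseudocounts of 1 and 0.1), that of Socs1 with the 45S factor (edgeR FDR 0.0574) and in the compared groups alone (edgeR FDR 0.0512), that of H2-K1 in limma (0.0632 and 0.0589), and that of Mrc1 in limma with a pseudocount of 0.1 (0.0544).

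Markers of the sorted cells and of Sertoli cells moved with these calls. The meiotic genes Dmc1, Hormad1, Meiob, Prdm9, Smc1b, Sycp1 and Sycp2 rose by 1.09 (Smc1b) to 2.17 (Meiob) on the log2 scale in Dnmt3l KO (edgeR FDR 0.0107 to 0.0447), and 11 of the 12 L/Z spermatocyte markers were above WT with a median of 1.30. Their sum was 8498 and 8040 CPM in the Dnmt3l KO libraries against 2466 and 4276 CPM in those of WT. All 7 calls were lost without Dnmt3l KO replicate 1 (edgeR FDR 0.13 to 0.219), and all but that of Prdm9 without WT replicate 1 (0.0846 to 0.214) or Dnmt3l KO replicate 2 (0.0528 to 0.134). With the 45S factor the calls of Smc1b (edgeR FDR 0.0505) and Sycp1 (log2 difference 0.989, under 2-fold) were lost. In limma those of Hormad1, Smc1b and Sycp1 were lost with both pseudocounts, and that of Sycp2 with a pseudocount of 1 (FDR 0.0514). Sertoli markers summed to 354 and 110 CPM against 578 and 371 CPM, and 7 of 8 were below WT with a median of -1.24. Of these markers 4 had an unadjusted edgeR p under 0.05, as had 3920 of all 14662 genes in either direction. The part of cell composition in the calls of Ifngr1, H2-K1, Mrc1 and Socs1 was not tested.

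The Dnmt3l KO effect was then compared between stages by an interaction term between stage and genotype, where stage goes with tissue, cell purity, age and read type, which cannot be told apart. For the members with enough fragments at L/Z, the effect at L/Z minus that at P0 was -2.43 ± 0.786 for Oasl2, -1.33 ± 0.447 for Bst2, -1.99 ± 0.903 for Irf7, -1.33 ± 1.019 for Usp18 and 0.06 ± 0.904 for Isg15 on the log2 scale. The edgeR test passed no member (FDR 0.139 for Oasl2, 0.154 for Bst2 and 0.275 for Irf7), where 0.665% of all 16547 genes passed. An unadjusted edgeR p under 0.05 was found for 3 members and for 2841 of the 16547 genes. DESeq2 passed Oasl2 (FDR 0.0453), where 4.45% of all genes passed. The Pld6 KO effect at L/Z minus that at P0 lay between -0.82 ± 0.424 for Bst2 and 0.80 ± 1.058 for Isg15 among the same 5 genes, and neither edgeR (0.0121% of all genes) nor DESeq2 passed any, with no member at p under 0.05.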

How the data were processed

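Poly(A)-selected RNA from 17 mouse libraries was measured by stranded RNA sequencing, as single 50-bp reads for L/Z spermatocytes and paired 100-bp reads for P0 testes. The authors aligned reads to mm10 with TopHat2 and quantified RefSeq genes with Cuffdiff, with versions not given in the sources used here. The deposited tables, 1 per stage, hold estimated counts of fragments per gene and library before scaling (97.8% of values whole at L/Z and 97.7% at P0) and the authors' FPKM, which Cuffdiff scales by transcript length and library size. Replicates were not pooled. Replicates are numbered from 0 in the tables but from 1 in the labels and were matched in ascending order; groups do not depend on this, but names of single replicates do. Genes that Cuffdiff did not mark OK throughout were excluded (6 at L/Z, 2 at P0).

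Rounded estimated counts were analysed with edgeR 4.0.16 under R 4.3.3 (filterByExpr, TMM, glmQLFit, glmQLFTest), with all groups of a stage in 1 fit. Calls needed a Benjamini-Hochberg FDR under 0.05 and a fold over 2; the departure of DKO from additivity and the differences between stages had no fold threshold. CPM are counts scaled to a common, TMM-adjusted library total. SE are log2 fold changes divided by the root of the F statistic. P values are two-sided and measure the spread between samples. The labels call the samples biological replicates, but no source used here says that each came from a separate animal. In counts simulated for Dnmt3l KO against WT, 74% of 4-fold changes at P0 were called over 15901 genes and 78% at L/Z over 14662, and 100% of 16-fold changes at both stages. The changed genes were drawn from all tested genes, so these shares cannot be carried over to the rarer members. In the real P0 counts the same comparison called 0 of 15901 genes. Dnmt3l itself, at 53 and 72 fragments in WT against 2 and 1, was not called there.

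The 9 members, the gene lists and the comparisons were chosen with earlier results of these data known, so counts over a list are descriptions set beside all genes. Named genes were all members, list genes called in a main comparison, otherwise the 2 genes of a list with the highest WT FPKM (of these and of the marker lists a selection is printed), and in each stage the 6 genes most like the members' mean among those averaging 50 counts or more. Symbols were matched to RefSeq GRCm38.p6, which also gave positions and promoter sequence. Alternatives were DESeq2 1.42.0 size factors, the DESeq2 Wald test, no filter, fits restricted to the groups compared, limma 3.58.1 on FPKM (as log2 with a pseudocount of 1 or 0.1), calls without a fold threshold, a replicate block, a factor for 45S-rich libraries, and leaving out each replicate. Added after seeing the data were the 2 comparisons pooled by locus and a crossed replicate block. Tables and figures used Python 3.11.15, numpy 2.4.6, pandas 2.3.3 and matplotlib 3.10.9. Retrotransposon copies and DNA methylation were not analysed here.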

Additional observations from a re-analysis of the deposited data

Results flagged for a closer look

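In the 4 Pld6 KO libraries at P0, Ifit1 had 1 library far from the others. Replicate 4 was at 1.31 CPM (13 fragments) and the other 3 between 0.318 and 0.428 CPM (4 or 5 fragments), so that the gap was 0.889 of the whole range, above Dixon's 95% critical value for 4 samples. Chance flags about 1 in 20 groups, and 9 genes were examined in this group. The part of depth or tissue make-up was not tested.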

How the results depend on the processing

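No edgeR count of called members changed under the other size factors, no filter, the compared groups alone, no fold threshold, the replicate block, the 45S factor or any library left out: all stayed at 0. DESeq2 called 2 members in Dnmt3l KO at P0 (Oasl2 and Bst2), 2 in libraries without against with Dnmt3l (Oasl2 and Ifi44) and 1 in the stage difference of Dnmt3l KO (Oasl2), and limma on log2(FPKM + 0.1) called 1 at L/Z (Isg15). The cause was not tested. Among single genes, 28 values turned their sign, none of which passed a test. In Pld6 KO at L/Z, Irf7 was at 0.023 and 0.103 with limma (pseudocounts 1 and 0.1), 0.054 with the replicate block, 0.093 with the 45S factor and 0.031 with the crossed block, a pairing chosen after seeing the data, and Usp18 was at 0 in the compared groups alone. In Dnmt3l KO at L/Z, Irf7 was at 0.15 and Usp18 at 0.49 with the 45S factor, and Usp18 at 0.089 with the block. Usp18 in DKO was at -0.054 with the block.

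With 1 library left out, which leaves some groups with 1 library whose spread is taken from the others, Pld6 KO at L/Z ran from -0.66 to 0.90 for Irf7, from -0.66 to 0.38 for Oasl2 and from -0.62 to 0.57 for Usp18. Dnmt3l KO at L/Z ran from -1.01 to 0.55 for Irf7, -1.09 to 0.15 for Oasl2, -0.29 to 0.33 for Usp18 and -0.57 to 0.056 for Bst2. At P0, Pld6 KO ran from -0.001 to 1.74 for Isg15 and -0.36 to 0.43 for Usp18, and Usp18 ran from -0.11 to 1.96 in Dnmt3l KO, from -0.32 to 0.47 in DKO and from -0.03 to 1.00 without against with Dnmt3l. No label says that replicate numbers mark a shared animal or day, and r of same-numbered deviations from group means ran from -0.332 to 0.485. At L/Z, WT and Pld6 KO deviated together (0.485) and both replicates 1 were rich in 45S RNA, but Dnmt3l KO did not join them (-0.144 and -0.135). Over all genes, calls in Pld6 KO at L/Z numbered 33, against 24 with the block, 101 with the 45S factor and 100 with the crossed block. Under the block 7 members in Dnmt3l KO at P0 had p under 0.05 where 8 had without it.

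With 2 libraries in most groups and 2 to 20 fragments for Isg15 and 1 to 41 for Ifit1 and Ifit3 in P0 libraries, differences of the rarer genes were poorly resolved.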
